A study of Mus musculus with 2 samples.

Results

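The genes described here are 10 products of the hormone-making cells of the gut: the granule proteins Chga and Chgb, the serotonin-synthesis enzyme Tph1, and the hormone genes Tac1, Cck, Gcg, Sct, Gip, Sst and Ghrl. They were chosen by name and not by a rule on their measured values, but with earlier results of these data known. The matrices hold 27998 genes, and all 10 members were detected in the annotated cells of both mice. Single-cell RNA sequencing was performed on crypts from the jejunum of 2 male mice at 12 months of age, and 1 library was made per mouse (mouse 1 and mouse 2). Both mice carried a whole-body deletion of miR-375 (375KO) that was made with CRISPR/Cas9 and bred onto a B6 albino background, and the labels give the strain as C57BL6/2J. The deletion itself was not checked here. Wild-type mice were not analysed, so no value below is an effect of the deletion, and the spread between the mice is that of 2 animals.

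Enteroendocrine cells (EEC) are rare epithelial cells that sense the content of the gut lumen and release peptide hormones or serotonin from secretory granules. Chromogranins pack these granules, prohormone convertases cut the hormone precursors, and different EEC make different sets of hormones, which has given rise to letter names such as I cells (cholecystokinin), K cells (GIP), L cells (GLP-1 from proglucagon), D cells (somatostatin) and the serotonin-making enterochromaffin cells. The cells mature from progenitors that transiently express Neurog3, and hormone content is known to change as a cell moves along the crypt and villus. Crypts, rather than villi, were sampled here.

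The authors annotated 10 cell types, and 74 of the 3275 annotated cells were EEC, 54 in mouse 1 and 20 in mouse 2. Mouse 1 gave 44017234 UMIs (unique molecular identifiers, each 1 captured RNA molecule) in 2082 annotated cells, and mouse 2 gave 22163354 in 1193. No barcode was shared by the libraries. The EEC were shallower than the annotated cells as a whole, with a median of 7399.5 UMIs against 16475 in mouse 1 and 9389.5 against 15232 in mouse 2. Of 10 transcription factors known from EEC, 9 had their highest level in the annotated EEC of both mice, and Neurog3 was highest in secretory progenitors in both. Markers of other cell types were also read in some EEC. The 6 goblet markers summed to 6033 CPM (UMIs of a gene per 1000000 UMIs of the summed cells) in the EEC of mouse 1 and 2122 in mouse 2, against 184477 and 164890 in goblet cells, and the 6 lymphocyte markers summed to 3.22 in mouse 1 and 1263 in mouse 2, against 18207 and 10012 in the annotated intraepithelial lymphocytes (IEL). The 6 enterocyte markers summed to 1822 and 1031 CPM in EEC, against 39549 and 19199 in enterocytes. The 6 Paneth markers summed to 698 and 116, against 513019 and 406387 in Paneth cells. The tuft marker Rgs13 was at 0 in the EEC of both mice. Of 4 markers of secretory progenitors, only 1 was highest in that type in both mice. EEC with over 20000 UMIs, or with at least 100 UMIs of another type's markers, numbered 10 in mouse 1 and 4 in mouse 2. They are called mixed EEC below, and their part in the results was measured by leaving them out.

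As reference for the genes that follow, the promoter windows of 5 members are shown, each from 250 bases before to 50 bases after the transcription start in the RefSeq annotation of GRCm38.p6. Chga and Chgb are shown because their levels parted between groups of EEC, Sct because it was read widely outside EEC, Gip because it was the most abundant member, and Sst because it was read in the EEC of 1 mouse alone. Capitals mark exact matches, on either strand, to TGACGTCA, the letters of a cyclic AMP response element, or to TATAAA, the letters of a TATA box. The windows are GRCm38.p6 chr12:102554691-102554990 on the + strand for Chga, chr2:132781392-132781691 on the + strand for Chgb, chr7:141279084-141279383 on the - strand for Sct, chr11:96024295-96024594 on the + strand for Gip and chr16:23890795-23891094 on the - strand for Sst.
Chga: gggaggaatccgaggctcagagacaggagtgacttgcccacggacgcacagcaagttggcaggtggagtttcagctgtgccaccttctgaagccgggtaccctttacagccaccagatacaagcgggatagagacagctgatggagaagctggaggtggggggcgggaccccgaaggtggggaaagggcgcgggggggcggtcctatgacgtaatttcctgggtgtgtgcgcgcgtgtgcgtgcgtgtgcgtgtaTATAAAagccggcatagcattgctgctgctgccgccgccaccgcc
Chgb: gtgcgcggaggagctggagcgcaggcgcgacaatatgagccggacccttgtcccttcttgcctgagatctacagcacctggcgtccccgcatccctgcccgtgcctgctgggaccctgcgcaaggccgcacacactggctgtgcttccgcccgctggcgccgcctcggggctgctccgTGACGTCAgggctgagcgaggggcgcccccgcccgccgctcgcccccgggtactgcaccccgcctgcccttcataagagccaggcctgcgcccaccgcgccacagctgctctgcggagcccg
Sct: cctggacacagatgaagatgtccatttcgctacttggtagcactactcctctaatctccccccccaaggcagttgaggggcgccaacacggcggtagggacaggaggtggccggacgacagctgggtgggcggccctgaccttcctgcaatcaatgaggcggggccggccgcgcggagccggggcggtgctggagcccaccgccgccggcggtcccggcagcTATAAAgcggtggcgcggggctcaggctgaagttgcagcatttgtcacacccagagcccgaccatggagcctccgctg
Gip: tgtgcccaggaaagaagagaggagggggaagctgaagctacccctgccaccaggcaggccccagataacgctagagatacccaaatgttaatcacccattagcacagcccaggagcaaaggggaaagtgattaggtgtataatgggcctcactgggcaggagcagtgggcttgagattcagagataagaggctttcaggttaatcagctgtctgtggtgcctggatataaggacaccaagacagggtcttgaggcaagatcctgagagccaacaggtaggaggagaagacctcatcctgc
Sst: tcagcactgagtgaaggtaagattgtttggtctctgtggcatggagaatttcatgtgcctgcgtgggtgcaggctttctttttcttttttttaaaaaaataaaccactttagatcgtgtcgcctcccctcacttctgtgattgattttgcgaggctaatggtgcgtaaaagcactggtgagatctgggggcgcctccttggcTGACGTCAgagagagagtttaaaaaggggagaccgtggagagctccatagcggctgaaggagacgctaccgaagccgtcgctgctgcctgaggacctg
All 10 members matched a window, with 14 windows in all. TGACGTCA was found in the windows of Chgb and Sst, beginning at position -72 and -48 from the start, and in no window of the other members, against 1.79% of all 32851 promoter windows. TATAAA was found for 3 members (Chga, Gcg and Sct), against 13.6% of all windows. A match to CANNTG, the letters of an E-box that basic helix-loop-helix factors can bind, was found for all 10 members, but 72.3% of all windows hold one. Members are counted here by gene and the background by window. Tph1 and Ghrl have more than 1 window each, and 1 Tph1 window held no CANNTG. These matches describe the letters only and say nothing of binding.

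The granule proteins were among the most widely detected members. Chga encodes chromogranin A and lies at chr12:102554969-102565028 (mm10). Its level in EEC was 2009 CPM in mouse 1 and 1880 in mouse 2, or 1945 ± 91.3 (SD, n = 2). At least 1 UMI was found in 46 of 54 EEC (85.2%, exact 95% binomial interval 72.9 to 93.4) and in 16 of 20 (80%, 56.3 to 94.3). In mouse 2, 1 cell held 237 of the 405 Chga UMIs (58.5%), so the nearness of the levels rests on that cell. The level was 271-fold and 337-fold that of the mean of the 8 other epithelial types. Chgb encodes chromogranin B and lies at chr2:132781278-132795079. It reached 11918 CPM in mouse 1 and 7256 in mouse 2, with a UMI in 51 of 54 and 17 of 20 EEC. More Chgb than Chga was read in the EEC of each mouse. After each cell was thinned to 5000 UMIs, Chga was kept in 81.1% and 50% of EEC and Chgb in 92.5% and 85%, so the share for Chga in mouse 2 depends on depth. Without the mixed EEC, the mean level was 2582 CPM for Chga and 13320 for Chgb. Intervals and limits of this kind cover counting error only. As a background, stem cells, which should lack these genes, had a UMI of any single member in at most 3 of 139 cells (Chga, 2.16%) in mouse 1 and 2 of 117 (Chga, 1.71%) in mouse 2, at median depths of 12282 and 12559 UMIs.

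Tph1 encodes tryptophan hydroxylase 1, which makes the first and limiting step of serotonin synthesis outside the brain, and lies at chr7:46644641-46672537. Its level was 327 CPM in the EEC of mouse 1 and 144 in those of mouse 2, the lowest of the members found in both, and 15 of 54 and 4 of 20 EEC held a UMI. Tac1 encodes the precursor of substance P and neurokinin A, which enterochromaffin cells also make, and lies at chr6:7554879-7565834. It was read at 1660 CPM in mouse 1 and 2135 in mouse 2, and in 23 of 54 and 11 of 20 cells. Tph1 was found in 12 of 15 and 4 of 6 of the cells in which Tac1 was the leading hormone, as defined further on, and in no cell led by Cck, Gcg, Gip, Sst or Ghrl.

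Gip was the most abundant member but was found in a minority of EEC. It encodes glucose-dependent insulinotropic polypeptide, the incretin of K cells, and lies at chr11:96024545-96030831. The EEC of mouse 1 held 41045 CPM and those of mouse 2 held 82590, yet only 17 of 54 and 8 of 20 cells had any UMI. In the cell with the highest share, Gip took 47.4% of all UMIs. Cck encodes cholecystokinin, which contracts the gall bladder and releases pancreatic enzymes, and lies at chr9:121489824-121495694. Cck stood at 12882 CPM in mouse 1 and 21619 in mouse 2, in 33 of 54 and 13 of 20 cells. Sct encodes secretin, which drives bicarbonate secretion from the pancreas, and lies at chr7:141278330-141279133. Its level was 11132 in mouse 1 and 7172 in mouse 2, and it was found in 50 of 54 and 17 of 20 EEC, about as widely as Chgb.

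Gcg, Ghrl and Sst were also unequal between the mice. Gcg encodes proglucagon, the source of GLP-1 and GLP-2, and lies at chr2:62474530-62483650. Its level was 4445 CPM in mouse 1 and 9712 in mouse 2, in 12 of 54 and 4 of 20 cells. In mouse 2, 1 cell held 1079 of the 2092 Gcg UMIs (51.6%), so the difference in level depends on that cell. Ghrl encodes ghrelin, a hormone made mostly in the stomach, and lies at chr6:113716119-113719880, where 2 annotated genes on the opposite strand overlap it. Ghrl was read at 2787 CPM in mouse 1 and 8899 in mouse 2, in 21 of 54 and 8 of 20 cells. Here too 1 cell of mouse 2 held 1020 of the 1917 UMIs (53.2%). Sst encodes somatostatin, which restrains the release of other hormones, and lies at chr16:23889573-23890958. It stood at 1888 CPM in mouse 1, nearly all in 2 cells with 860 and 311 UMIs, and at 0 in mouse 2, where 0 of 20 cells allows, at 3 counts, a share of cells with a UMI of up to 15%. The order of the mean levels in EEC was Gip, Cck, Chgb, Sct, Gcg, Ghrl, Chga, Tac1, Sst and Tph1, and these are molecules counted at the 3′ end, which do not scale with gene length. Gip differed from Cck, and Cck from Chgb, by more than the larger SD of the pair. The other neighbours in that order differed by less than that: for example Chgb was at 9587 ± 3297 CPM (SD, n = 2) and Sct at 9152 ± 2800.

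**Figure D1:**
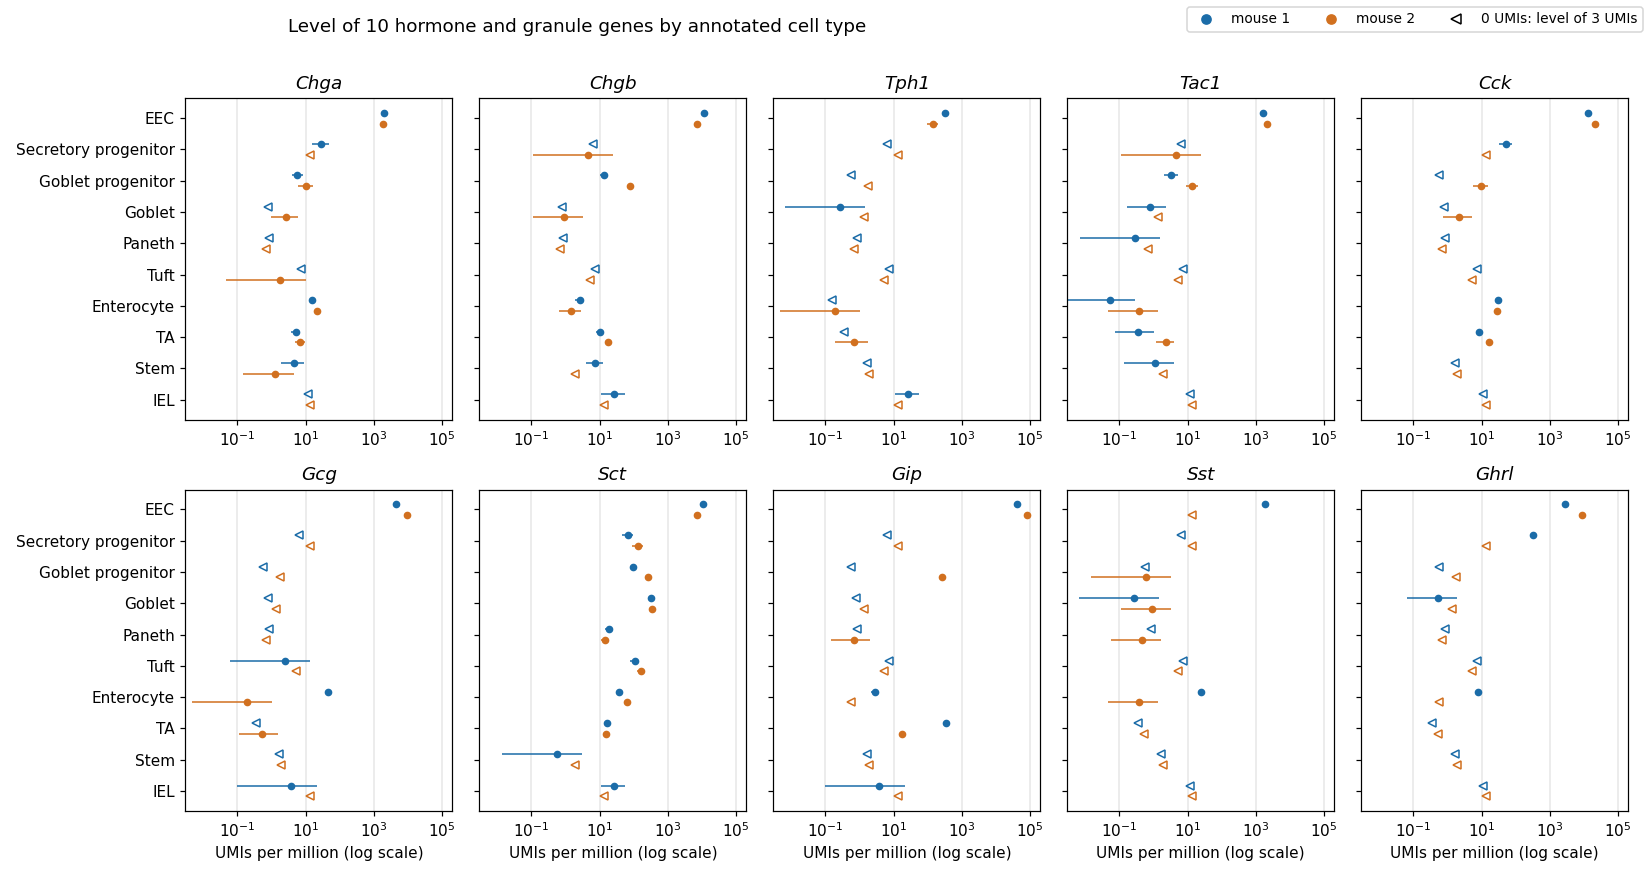
Level of each gene (horizontal axis, CPM on a log scale, exact 95% Poisson interval) in the 10 annotated cell types, for mouse 1 (blue) and mouse 2 (orange), with open triangles at the level of 3 UMIs where no UMI was found. EEC were highest for 9 of 10 genes in both mice, Sst was at 0 in the EEC of mouse 2, and Sct was spread over goblet, goblet progenitor, tuft and secretory progenitor cells.

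To ask how far the annotated EEC stood apart, UMIs were summed per mouse and cell type and tested with edgeR (quasi-likelihood test, cell type and mouse as terms, 18 sums). Against the mean of the 8 other epithelial types, all 10 members were higher at an adjusted p under 0.05, where 13.5% of the 11013 genes tested were higher and 8.12% lower. Several members were near 0 in most cells outside EEC and passed the filter on low counts mainly through EEC, so that number is a description. The adjusted p (Benjamini-Hochberg, edgeR) ran from 2.07e-10 for Tac1 to 0.0107 for Ghrl. The median fitted log2 fold change of the members was 12.2, beside 0.03 over all genes tested, but most members were at 0 in some of the other types, so the fitted size depends on the prior count. For Sct, which had UMIs in each of the 8 other types in mouse 1 and in all but stem cells in mouse 2, the log2 fold change was 7.34 (SE 0.26, adjusted p 5.17e-08 by edgeR). The cell types were named from the same cells' expression, so these calls describe the annotation and are not independent evidence. Tph1 was not called by the DESeq2 Wald test (adjusted p 0.105, the highest of 9 alternatives), Gcg was not called when each cell was thinned to 5000 UMIs (adjusted p 0.119, the highest of 9), and Sst rested on mouse 1 alone.

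Within EEC, single cells were dominated by different hormones. The members took 9.01% of all UMIs in the EEC of mouse 1 and 14.1% in mouse 2, and in single cells from 0.08% to 46.9% and from 0.16% to 48.4%. A median EEC held 5 of the 10 members in both mice, and every EEC held at least 1. When each cell was assigned to the 1 of the 7 hormone genes with the most UMIs, Tac1 led in 15 cells of mouse 1 and 6 of mouse 2, or 27.8% (exact 95% interval 16.5 to 41.6) and 30% (11.9 to 54.3). Gip led in 12 and 5 cells (22.2% and 25%), Cck in 5 and 5, Ghrl in 6 and 3, and Gcg in 1 and 1. Thus 5 hormones led in at least 1 EEC of each mouse. Sct led in 12 cells of mouse 1 and in 0 of 20 of mouse 2 (exact 95% interval up to 16.8%), and Sst led in 2 and 0. No cell was tied, and 1 cell of mouse 1, with 4 Chga UMIs, held none of the 7 hormones.

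**Figure D2:**
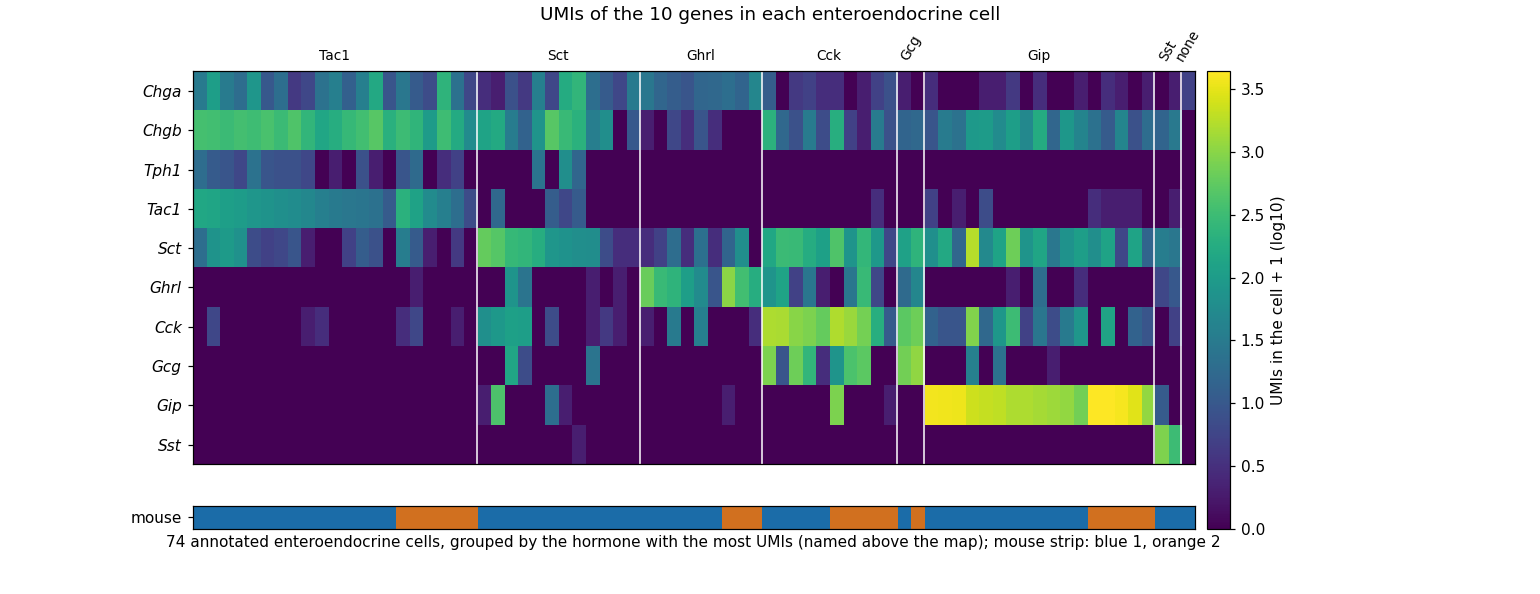
UMIs of the 10 genes (rows, log10 of UMIs + 1) in each of the 74 EEC (columns), grouped by the hormone with the most UMIs and marked by mouse. Cells led by Tac1 held Chga, Chgb and often Tph1, cells led by Gip held Gip at up to 4405 UMIs with little Chga, and most cells led by Cck or Gcg held Cck, Gcg, Sct and Ghrl together.

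The lead was large in some groups and small in others. In cells led by Gip, the median Gip count was 1767.5 UMIs in mouse 1 and 3988 in mouse 2, and the median ratio to the next hormone was 18.5 and 71.0. Cells led by Sct had no such lead, with a median ratio of 2.37. Among those 12 cells 3 held Tph1, including cells with 250 and 173 Chga UMIs, and 2 held Sct counts of only 2 UMIs beside 1 UMI or none of any other of the 7 hormones, so the cells of this group differed widely. The Tac1-led group was also led by low counts in part, with a Tac1 count under 50 UMIs in 7 of 15 and 3 of 6 cells.

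Chga and Chgb parted in some of these groups, although both are textbook markers of all EEC and neither was used to form the groups. Among cells led by Tac1, Ghrl, Cck or Gip, both were highest in Tac1-led cells in both mice. Chga there was 1.49-fold and 1.36-fold the next group, with 3 to 155 UMIs a cell in mouse 1 and 5 to 237 in mouse 2. In mouse 2, that lead depended on the cell with 237 UMIs: the median was 16 UMIs, against 20 in Ghrl-led cells. Chgb was highest in cells led by Tac1, at 26906 CPM in mouse 1 and 16664 in mouse 2, with 142 to 504 and 56 to 324 UMIs in single cells. In cells led by Ghrl it was nearly missing, with 0 to 8 UMIs a cell in mouse 1 and 0 UMIs in all 3 cells of mouse 2. These ranges did not overlap in either mouse. Chga was present in the same Ghrl-led cells, at 8 to 27 UMIs in mouse 1 and 14 to 46 in mouse 2, or 2198 and 3108 CPM. Cells led by Gip showed the opposite, with 0 to 3 Chga UMIs in mouse 1 and 0 to 2 in mouse 2, or 58.6 and 87.3 CPM, beside 8 to 176 and 7 to 44 Chgb UMIs. The ranges of Chga in Gip-led and Ghrl-led cells therefore did not overlap in either mouse, and those of Chgb touched only in mouse 1, at 8 UMIs. Cells led by Cck had Chga at 434 and 228 CPM, between the Gip-led and the Ghrl-led cells. Their Chgb was at 6040 and 3838 CPM, above the 4588 and 2226 of Gip-led cells, but 1 cell per mouse held 217 of the 278 and 192 of the 236 UMIs, and the median cell stood at 1653 and 410 CPM. Cells of 1 mouse are not replicates, so no test over cells was made. The groups are small, and the share of all genes with ranges that do not overlap between them was not measured.

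**Figure D3:**
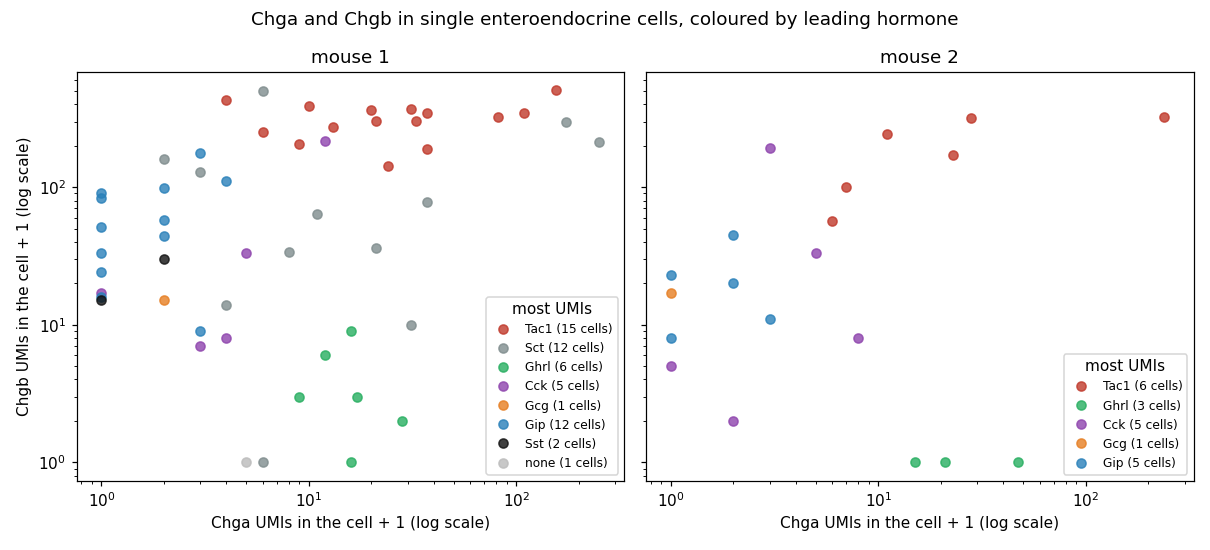
Chga (horizontal) and Chgb (vertical) UMIs plus 1 in each EEC, on log scales, for mouse 1 (left) and mouse 2 (right), coloured by the hormone with the most UMIs. Cells led by Ghrl lie at the bottom with Chga but at most 8 Chgb UMIs, cells led by Gip lie at the left with at most 3 Chga UMIs, and cells led by Tac1 have both.

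A few other genes of the EEC lists differed between the same groups. Lmx1a, a transcription factor of enterochromaffin cells, was found in 12 of 15 Tac1-led cells of mouse 1 and 4 of 6 of mouse 2, at 171 and 124 CPM, and in none of the cells led by Ghrl, Cck or Gip in either mouse. It was not limited to the Tac1-led cells: 15 EEC of mouse 1 held it, and the highest count, 6 UMIs, was in a cell led by Sct. Slc18a2, a vesicular transporter that loads amines into granules, was likewise read in Tac1-led cells and in none led by Ghrl, Cck or Gip, but over all EEC it amounted to only 16 UMIs in 6 cells and 6 UMIs in 1 cell. Its relative Slc18a1, which is the form of endocrine cells, was at 148 and 110 CPM in Tac1-led cells, 130 and 48.8 in Cck-led cells, and 23.4 and 21.8 in Gip-led cells. A 3-fold rule was set for the 10 transcription factors, and for 17 granule and 9 amine genes with at least 20 UMIs in EEC. The same group had to be over 3-fold higher than any other of these 4 groups in both mice. Only Lmx1a and Slc18a2 met it, and both had no UMI in the other groups, so a fold could not be computed. Their difference was therefore one of detection, and a size over 3-fold was not shown. Without the mixed EEC, the granule gene Rab3c and the hormone gene Pyy also met this rule, again with no UMI in the other groups.

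Isl1 and Scgn were low in Tac1-led cells and higher in those led by Ghrl, Cck or Gip. Isl1, a LIM-homeodomain factor, was read in every cell led by Cck, Gip or Ghrl in both mice but in 1 of 15 and 0 of 6 cells led by Tac1. Its level was 2055 and 2448 CPM in Ghrl-led cells, 434 and 1187 in Cck-led cells, 369 and 1091 in Gip-led cells, and 39.8 and 0 in Tac1-led cells. Scgn, a calcium sensor called secretagogin, was at 1242 and 1476 in Ghrl-led cells and at 11.4 and 13.8 in Tac1-led cells. Neurog3, the factor that starts the EEC program, was read in 4 of 6 and 3 of 3 Ghrl-led cells and in 6 of 15 and 2 of 6 Tac1-led cells, and in none led by Cck or Gip. Resp18, a granule protein, was at 146 and 327 CPM in Gip-led cells and at 0 in the 6 and 3 Ghrl-led cells. In mouse 1, Cck-led cells were the highest for Resp18, at 1.04-fold the next group.

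**Figure D4:**
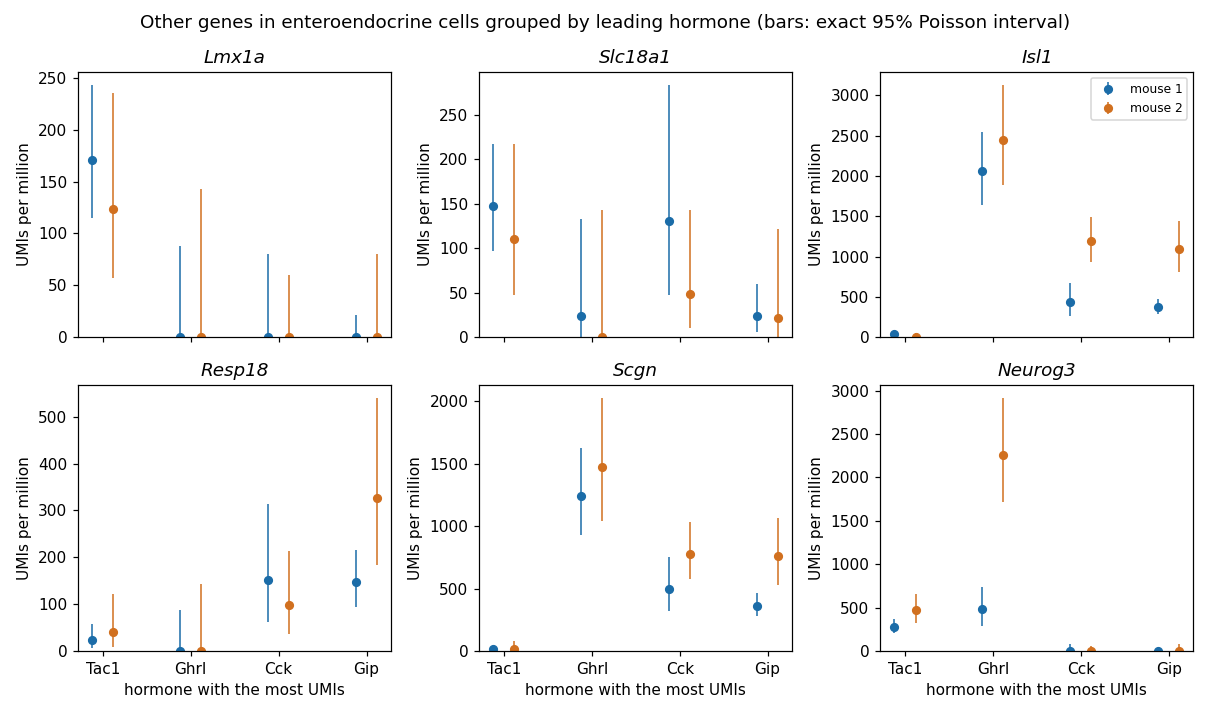
Level (vertical axis, CPM, exact 95% Poisson interval) of 6 genes in EEC grouped by the hormone with the most UMIs, for mouse 1 (blue) and mouse 2 (orange). Lmx1a is seen in Tac1-led cells alone among the 4 groups, Isl1 and Scgn are highest in Ghrl-led cells and near 0 in Tac1-led cells, Neurog3 is at 0 in Cck-led and Gip-led cells, and Resp18 is at 0 in Ghrl-led cells.

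Most EEC held more than 1 hormone. At least 2 of the 7 hormones were detected in 49 of 54 and 18 of 20 cells (90.7% and 90%), and with a minimum of 10 UMIs for each hormone in 34 of 54 and 13 of 20 (63.0%, exact 95% interval 48.7 to 75.7, and 65%, 40.8 to 84.6). Of the 45 pairs of members, 32 were found together in at least 1 EEC of both mice at 1 UMI and 24 at 10 UMIs. Gcg was always found with Cck and with Sct, in 12 of 12 cells of mouse 1 and 4 of 4 of mouse 2. These cells were 36.4% and 30.8% of those with Cck, so the relation ran in 1 direction. Ghrl was found in 9 of 12 and 3 of 4 of the cells with Gcg.

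Sct was found in most EEC (50 of 54 and 17 of 20) and thus with most other hormones. It was detected in 17 of 17 and 8 of 8 cells with Gip, in 3 of 3 cells with Sst, and in 21 of 21 and 7 of 8 cells with Ghrl. With a minimum of 10 UMIs of each gene, Sct was still found with Cck in 20 of 20 and 7 of 8 cells, but with Tac1 in only 8 of 18 and 2 of 5. Some pairs were rarely or never found together at that minimum. Tac1 was with Gcg or Ghrl in 0 cells of either mouse, and Gip was with Ghrl in 1 cell of mouse 1 and 0 of mouse 2. Chga and Gip also reached 10 UMIs in 0 shared cells, although 23 and 7 cells had that much Chga and 15 and 6 had that much Gip. Cck and Gip were shared by 9 cells of mouse 1 and 3 of mouse 2. These numbers are small, and the EEC called mixed above are among them.

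Outside EEC, secretin was the member read in the most cells. In goblet cells, the mucus-making cells, Sct was read at 323 CPM in mouse 1 and 339 in mouse 2, and in 235 of 277 (84.8%) and 117 of 138 (84.8%) cells. Goblet progenitors had 95.9 and 257, tuft cells 109 and 159, and secretory progenitors 67.3 and 129. In stem cells it was near 0, with 1 of 139 and 0 of 117 cells at median depths of 12282 and 12559 UMIs, against 13649 and 15708.5 in goblet cells. The share in goblet cells was thus far above the share in stem cells of like depth, in both mice. With every cell thinned to 5000 UMIs, the shares were 62.7% (exact 95% interval 56.7 to 68.4) and 63.8% (55.2 to 71.8) in goblet cells, 33.3% and 51.2% in goblet progenitors, 35.9% and 50% in tuft cells, 25.8% and 26.3% in secretory progenitors, and 4.41% and 6.28% in enterocytes.

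The goblet signal was low per cell but not made by a few cells. Goblet cells with Sct held a median of 4 UMIs in mouse 1 and 5 in mouse 2, the highest held 34 and 42, and 28 and 23 cells held 10 or more. By contrast the highest EEC held 1732. Gip, which was several times more abundant than Sct in EEC, was at 0 UMIs in the goblet cells of both mice. Whether RNA from EEC added to the Sct counts of goblet cells was not tested. Paneth cells, which secrete antimicrobial peptides and were the deepest cells, had Sct at 19.1 and 14.2 CPM and in 55.1% and 64.8% of cells, but in 2.56% and 9.26% after thinning. With TMM scaling the mean Paneth level of Sct was 120 rather than 16.6 CPM.

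Chga showed a weaker signal outside EEC. In mouse 1 it was highest in secretory progenitors (28.2 CPM, 5 of 31 cells), where mouse 2 had 0 of 19. TA cells (28 of 320 and 24 of 323) and goblet progenitors (17 of 162 and 6 of 84) held it as well, and most positive cells were enterocytes. Enterocytes, the absorptive cells, had 15.6 CPM in mouse 1 (exact 95% Poisson interval 13.9 to 17.5) and 21.9 in mouse 2 (18.1 to 26.2), in 178 of 931 (19.1%) and 78 of 382 (20.4%) cells. Goblet cells had 0 of 277 and 5 of 138 (3.62%), at median depths of 13649 and 15708.5 UMIs against 16975 and 13405 in enterocytes. No Paneth cell had a UMI, at median depths of 44683.5 and 80820. Most positive enterocytes held 1 UMI (109 of 178 and 51 of 78), and none held 10. After thinning, 6.02% (4.58 to 7.75) and 7.59% (5.14 to 10.7) of enterocytes kept a UMI, against 0% and 1.45% of goblet cells. These levels are far below the 2009 and 1880 CPM of EEC.

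**Figure D5:**
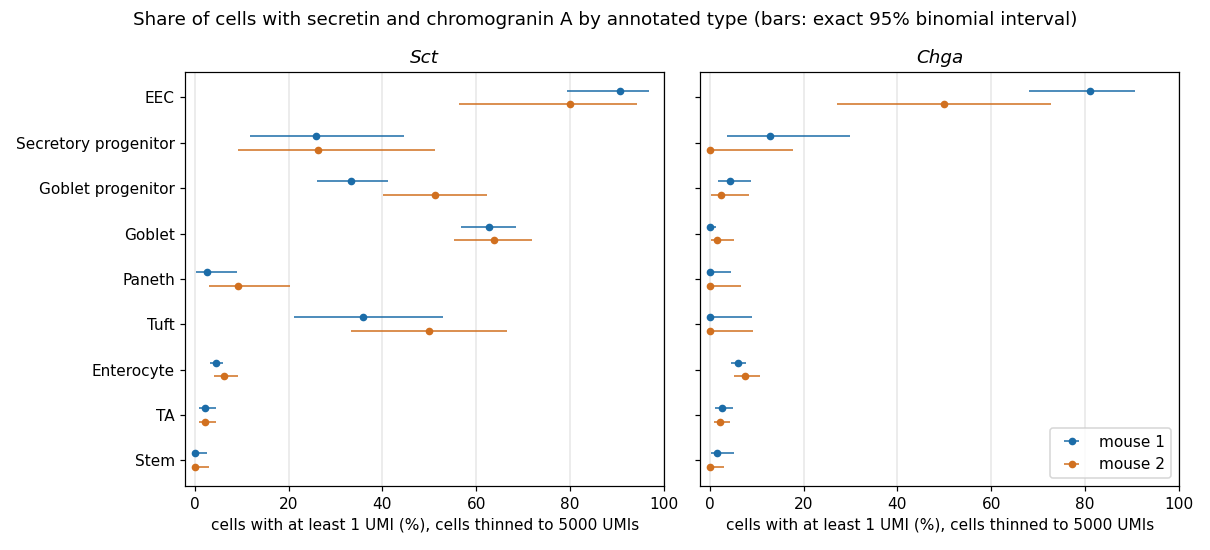
Share of cells with at least 1 UMI of Sct (left) and Chga (right) after each cell was thinned to 5000 UMIs, by annotated epithelial type and mouse, with exact 95% binomial intervals. Sct is seen in 62.7% and 63.8% of goblet cells and in no stem cell, and Chga in 6.02% and 7.59% of enterocytes.

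Most UMIs of Cck, Gip and Chgb outside EEC in both mice, and of Gcg, Sst and Ghrl in mouse 1, came from single cells with large counts. Of 2028 and 1173 cells outside EEC, 8 and 5 held at least 50 UMIs of a member other than Sct. These 13 cells lay among enterocytes, TA (transit-amplifying) cells, goblet progenitors and secretory progenitors. In mouse 1, they held 2968 of the 2969 Gip UMIs outside EEC, 890 of 892 Gcg UMIs, 475 of 476 Sst UMIs and 296 of 304 Ghrl UMIs. In mouse 2, they held 518 of 536 Gip UMIs, 237 of 271 Cck UMIs and 153 of 242 Chgb UMIs, but 2 of 4 Gcg UMIs and 0 of 7 Sst UMIs. Each of them had between 2 and 8 of the 10 EEC transcription factors, and totals from 16014 to 68467 UMIs, above the EEC medians. The TA cell with 16014 UMIs was below the median of the TA cells of mouse 2, 16966. All the others were above the median of their own type and mouse. The number of these factors in other cells of the same types was not measured. A pair of TA cells of mouse 1, with 1900 and 1013 Gip UMIs, gave the whole TA level of 345 CPM. Without these 13 cells, Gip was at 0 in the 8 other epithelial types of mouse 1, and the mean Chgb level of those types fell from 4.16 to 1.08 in mouse 1 and from 12.8 to 2.67 in mouse 2. The authors had kept these cells after their doublet removal, and whether the droplets held more than 1 cell was not tested further.

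Secretory progenitors, the precursors of EEC, goblet and Paneth cells, were compared with the other epithelial types, EEC left out, to ask whether hormone transcripts were already present there. None of the 10 members was called by edgeR (lowest adjusted p 0.197), where 3.85% of genes were higher and 1.97% lower. At an unadjusted p under 0.05, 2 members passed in edgeR (Chga and Ghrl) and 2 in DESeq2 (Chga and Sct), and DESeq2 called 0 after adjustment. In the 31 cells of mouse 1 and 19 of mouse 2, Chga was at 28.2 and 0 CPM and Cck at 52.1 and 0. Ghrl was at 313 and 0, all from 144 UMIs in 1 cell of mouse 1. Sct stood at 67.3 and 129. Mouse 1 was higher for Chga, Cck and Ghrl, and mouse 2 for Sct. Of the granule and peptide processing genes described next, 3 of 18 were higher in secretory progenitors, as was 1 of 10 amine genes. Without the filter on low counts 4 members (Cck, Chga, Ghrl and Sct) were called, and with cells thinned to 5000 UMIs Chga was (adjusted p 0.0183), so the absence of a call depends on these settings.

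Genes that act with the members were read from 4 fixed lists. Of 20 genes for granules and peptide processing, 18 had enough UMIs to be tested and were higher in EEC by edgeR, beside 13.5% of all genes. Several were near 0 outside EEC and passed the filter on counts mainly through EEC, so the number is a description. Scg2, a granin, was at 429 CPM in mouse 1 and 218 in mouse 2 in EEC, against a mean of 0.31 and 0.24 in the other types. The proprotein convertase inhibitor gene Pcsk1n was at 90.2 and 176, Resp18 at 105 and 121, and Scgn at 305 and 580. The median fitted log2 fold change of this list was 8.55, and the converting enzyme Pcsk1 was higher as well, at 259 and 135 against 4.60 and 1.91. DESeq2 did not call Pcsk1n (adjusted p 0.129) or Resp18 (0.176).

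The list of amine synthesis and storage holds enzymes that also serve other pathways. Of 10 tested, 6 were higher and 1 lower in EEC, beside 13.5% and 8.12% of all genes, and the median log2 fold change was 2.71. Lmx1a was at 69.3 and 41.8 CPM against 0.05 and 0.10 in the other types. Gch1, the first enzyme of tetrahydrobiopterin synthesis, was at 299.7 and 497 against 9.73 and 8.98. The transporters Slc18a2 (25.8 and 27.9 in EEC) and Slc18a1 (87.0 and 60.3) were higher too. Spr, which completes tetrahydrobiopterin synthesis, was the gene that was lower (log2 fold change -0.61, SE 0.20, adjusted p 0.0252 by edgeR), with 90.2 and 69.6 in EEC against 107 and 83.6. Maoa, which breaks serotonin down, did not pass the test, with 90.2 and 13.9 against 202 and 131, and was called lower without the filter on low counts (adjusted p 0.0118), in thinned cells (0.000339) and without the mixed EEC (0.0197). Pts, with 72.5 and 102 against 65.3 and 62.3, did not pass either. DESeq2 called neither Lmx1a (adjusted p 0.211) nor Slc18a2 (0.0562).

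Of 14 other gut hormones and neuropeptides, only 5 had enough UMIs to be tested. The 2 that were called higher were near 0 in the other types and so passed the filter on counts mainly through EEC. Iapp, which encodes amylin, was at 46.7 and 46.4 CPM in EEC, and Ucn3, urocortin 3, at 12.9 and 121. Both rested on few cells, with Iapp in 4 of 54 and 2 of 20. Nts, neurotensin, was at 2154 CPM in the EEC of mouse 1 and 0 in those of mouse 2. It did not pass the test (adjusted p 0.0989 by edgeR), but was called with DESeq2, without the filter and with no replicate block. In mouse 1, 1 EEC held 1019 of the 1337 Nts UMIs. The enterocytes held 4 Nts UMIs in mouse 1 and 244 (45.6 CPM) in mouse 2, so Nts was read in mouse 2 outside EEC. Fam3b did not pass, at 3.22 and 9.28. Of 21 receptors for the members' products, 3 had enough UMIs to be tested. They were higher in EEC, and, being near 0 in the other types, could pass the filter on counts only through EEC, so this number says nothing of the list: the GIP receptor gene Gipr (14.5 and 18.6 CPM in EEC) and the somatostatin receptor genes Sstr1 (25.8 and 46.4) and Sstr5 (27.4 and 41.8). DESeq2 called neither Ucn3 (adjusted p 0.208) nor Sstr1 (0.126) nor Sstr5 (0.256).

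The genes with the most similar pattern to a member over the 20 sums of mouse and cell type were found among 11758 genes with at least 50 UMIs, by Pearson correlation of log2(CPM + 1). Tac1 was closest to Gm43861 (r = 0.97) and Pax6 (0.97). Gcg was closest to Pyy (0.96), which encodes peptide YY, and Etv1 (0.96), Cck to Lhfpl2 (0.95) and Cpe (0.95), and Tph1 to Pnmal1 (0.97) and Disp2 (0.95). Chga shared its first gene with Cck, Lhfpl2 (0.93). For Sct, the closest genes were Ube2e2 (0.89) and Tbc1d16 (0.88), and for Sst they were Pcp4l1 (0.98) and Afp (0.87). The sums share library and depth, and for most members r rests mainly on the difference between the EEC sums and the rest. For Sst the EEC sum of mouse 2 was 0, so its r rests mainly on the EEC of mouse 1. Gcg and Pyy were also read in the enterocytes of mouse 1, at 46.0 and 21.6 CPM, with all 890 Gcg UMIs there in 1 cell. The correlations are therefore descriptions only.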

How the data were processed

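Jejunal crypt cells of 2 male 375KO mice were profiled with the 10x Genomics 3′ kit. The authors aligned reads to mm10 with Cell Ranger 3.0.1 and deposited, per library, a matrix of raw UMI counts per gene and barcode. SoupX is named for ambient RNA, without saying which deposited matrix it was applied to. The authors also deposited the mitochondrial percent of each cell, doublet calls and cell types, named from module scores of known markers after cells with few genes or many mitochondrial reads were removed. Cells of other samples in those tables (2937 columns per table and 6059 doublet rows) were not used. Cell types were joined to the matrices through the cell names of the count table of the whole study, and 3275 of 3275 annotations had the same total and gene number there, while totals in the matrices, which hold more genes, were higher by at most 29 UMIs in mouse 1 and 262 in mouse 2. The table of corrected counts was not used.

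The members and gene lists were chosen with earlier results of these data known. The count model was tested on simulated data. UMIs were summed per mouse and type (at least 10 cells), filtered with filterByExpr, scaled with TMM and tested with edgeR 4.0.16 (R 4.3.3), 2-sided, at an adjusted p of 0.05. The 8 residual degrees of freedom come from 2 mice and from types that share 1 spread per gene. DESeq2 1.42.0 was an alternative. Levels are CPM, UMIs of a gene per 1000000 UMIs of the summed cells. Counts of 0 were given an upper limit of 3 counts. All members were named. List genes named were up to 4 past the threshold with the largest change and up to 2 below it with the most UMIs, and Spr, Pcsk1, Rab3c and Pyy, and the genes compared between groups of EEC, were chosen after their values were seen. Doublets were those the authors removed. Thinning drew 5000 UMIs per cell without replacement and left out shallower cells. The 50-UMI limit for cells outside EEC and the definition of mixed EEC were also set after the data were seen. The most alike genes of Ghrl are not reported here.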

Additional observations from a re-analysis of the deposited data

Results flagged for a closer look

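Hormone transcripts were also read in barcodes outside the annotated cells, which no comparison above uses. At least 50 UMIs of a member were found in 5 such barcodes of mouse 1 and in 1 of mouse 2. In mouse 1, they were a barcode with 475 Sst UMIs of 2894 in all, a pair with 129 and 87 Gip UMIs, and a pair that the authors called doublets, with 178 and 128 Chgb UMIs. The barcode of mouse 2 held 538 Ghrl UMIs of 8874, with 32.0% mitochondrial reads.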

How the results depend on the processing

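All 10 members stayed higher in EEC with RLE factors, without a filter on low counts, with no replicate block, with lymphocytes included and without mixed EEC. Sst was not tested under the stricter cell filter, in thinned cells or without the cells of 50 UMIs or more. Other alternatives that moved a result follow, and the cause was not tested. In EEC, 286 genes rather than 894 were lower with no replicate block. In secretory progenitors, with no replicate block 208 genes were higher and 34 lower, rather than 424 and 217, with thinned cells 77 were lower, and the number of members called was 4 without the filter and 1 in thinned cells, rather than 0. The mean share of EEC with 2 or more hormones was 90.4%, and 86.0% at 2 UMIs, 64.0% at 10 UMIs, 86.8% in thinned cells, 89.7% under the stricter filter and 91.2% without mixed EEC. At 10 UMIs, 2 members rather than 4 were found in at least 50% of the EEC of both mice.

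Leaving out a mouse leaves no residual degrees of freedom, so only values were taken. Without mouse 1, the log2 fold change in EEC reversed for Sst (-0.59, and 10.8 without mouse 2), Nts (-0.88 and 11.7) and Fam3b (1.29 and -1.34), and for Pts without mouse 2 (-0.23, and 0.49 without mouse 1). Pts also reversed without the filter (-0.076), under the stricter filter (-0.066), in thinned cells (-0.014) and without mixed EEC (-0.22), and Fam3b with no replicate block (0.17), under the stricter filter (0.17), with lymphocytes (0.58) and without mixed EEC (0.28). The 20 EEC of mouse 2 and the 54 of mouse 1 limit every share given for EEC.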
